A study of Mus musculus with 9 samples.

Results

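The guanylate-binding proteins (GBPs) and the immunity-related GTPases (IRGs) are interferon-inducible GTPases of cell-autonomous immunity, and 10 of them were followed here in mouse spleen-derived monocytes: Gbp2, Gbp3, Gbp5, Gbp7, Gbp9, Igtp, Irgm1, Irgm2, Iigp1 and Ifi47. They were found by gene symbol in the deposited table, which held all 10 among its 26770 gene rows. RNA was sequenced from 9 libraries of wild-type cells in 3 groups of 3. The first group received low-dose lipopolysaccharide (LPS, the bacterial outer membrane component sensed by Toll-like receptor 4) as priming and then octanal at 20 µM. Its samples are labelled with 18, 19 and 20 hours of octanal, and the dose and time of its priming are not given separately in the sample labels. The second group received LPS at 40 ng/ml for 5 hours. The third group was untreated and received the solvent DMSO, labelled as a dilution of 1 in 1000, 1001 and 1002. Octanal is an aldehyde that activates the olfactory receptor Olfr2, and the series asks what Olfr2 does in monocytes during myocardial ischaemia and reperfusion injury. The labels do not say that LPS cells stayed in culture as long as octanal cells, so octanal and time in culture cannot be told apart, nor can the solvent, which the sample labels name for untreated cells alone.

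GBPs are large dynamin-like GTPases, and IRGs are smaller relatives that are abundant in mice. Both assemble on the membranes of vacuoles that hold intracellular pathogens and on cytosolic bacteria, and GBPs help to bring bacterial LPS to the inflammatory caspases of macrophages. Their genes answer to interferon-gamma, which acts through gamma-activated sites (GAS) in DNA, and to type I interferon, which acts through a factor that contains IRF9 on interferon-stimulated response elements (ISRE). LPS reaches these genes mainly through interferon-beta that the stimulated cells release.

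Total counts were 29594291 to 38388421 per library, and 15447 genes passed the filter on low counts, all 10 GTPases among them. Of the defining monocyte markers, Ly6c2 was at 0.625 to 1.01 CPM (counts scaled to a common library total) with octanal, 0.387 to 7.90 CPM with LPS and 2.82 to 249 CPM in untreated cells. Ccr2 was at 0.658 to 2.85, 0.885 to 1.82 and 4.65 to 30.1 CPM in the same order. Both genes were low in every treated library. The monocyte receptor genes Csf1r and Cd14 ranged over the 9 libraries between 178 and 659 CPM and between 405 and 1422 CPM. Their means in the same order were 379, 231 and 402 CPM for Csf1r and 1247, 712 and 533 CPM for Cd14. Summed over 10 monocyte markers, these genes included, the level was 5702 to 8427 CPM with octanal and 2973 to 4146 CPM with LPS. It was 6254 to 14422 CPM in untreated cells. Against untreated cells, 8 of these 10 markers had negative log2 differences with LPS, and 8 with octanal. The summed level of 10 neutrophil markers was 4757 to 11608 CPM with octanal, 1465 to 1893 CPM with LPS and 12930 to 25114 CPM in untreated cells. S100a9 and S100a8 had the highest means among these markers in each group, so the sum leans on them. Their means were 3414 and 2769 CPM with octanal, 582 and 744 CPM with LPS, and 7716 and 4155 CPM in untreated cells. The summed level of 9 T cell markers was 686 to 1048 CPM with octanal, 1147 to 1410 CPM with LPS and 133 to 647 CPM in untreated cells. In bulk RNA, fewer cells of a type and less RNA per cell cannot be told apart.

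The 5 GBPs were all higher in both treated groups than in untreated cells on average, and in each treated group replicate 1 was well above the other replicates. Gbp2, which in mice helps caspase-11 respond to Gram-negative bacteria, had 145, 69.8 and 46.2 CPM with LPS and octanal, 155, 74.5 and 81.7 CPM with LPS, and 27.4, 33.1 and 57.2 CPM in untreated cells. Its octanal libraries overlapped the untreated ones, while its LPS libraries did not. Gbp5, which promotes assembly of the NLRP3 inflammasome in mouse macrophages, had 65.7, 31.6 and 24.6 CPM with octanal, 66.1, 36.95 and 42.2 CPM with LPS, and 12.1, 15.2 and 17.9 CPM in untreated cells. All 6 treated libraries stood above all 3 untreated ones. Gbp3, another gene of the chromosome 3 cluster, had 44.3, 22.9 and 17.3 CPM with octanal, 59.0, 27.9 and 27.6 CPM with LPS, and 8.72, 10.2 and 8.32 CPM in untreated cells. Its untreated libraries lay within a factor of 1.23 of each other, the tightest untreated range among the GBPs. Gbp7, which in mouse macrophages helps to assemble the phagocyte oxidase on vacuoles, had 50.2, 24.7 and 21.1 CPM with octanal, 63.5, 28.1 and 34.6 CPM with LPS, and 7.69, 18.3 and 13.1 CPM in untreated cells. Gbp9, which gathers on Toxoplasma vacuoles in mouse cells, had 74.6, 39.5 and 39.9 CPM with octanal, 96.3, 46.9 and 56.7 CPM with LPS, and 9.41, 23.8 and 17.4 CPM in untreated cells. For Gbp7 and Gbp9 too, no treated library overlapped the untreated range, and untreated replicate 1 was the lowest library.

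**Figure D1:**
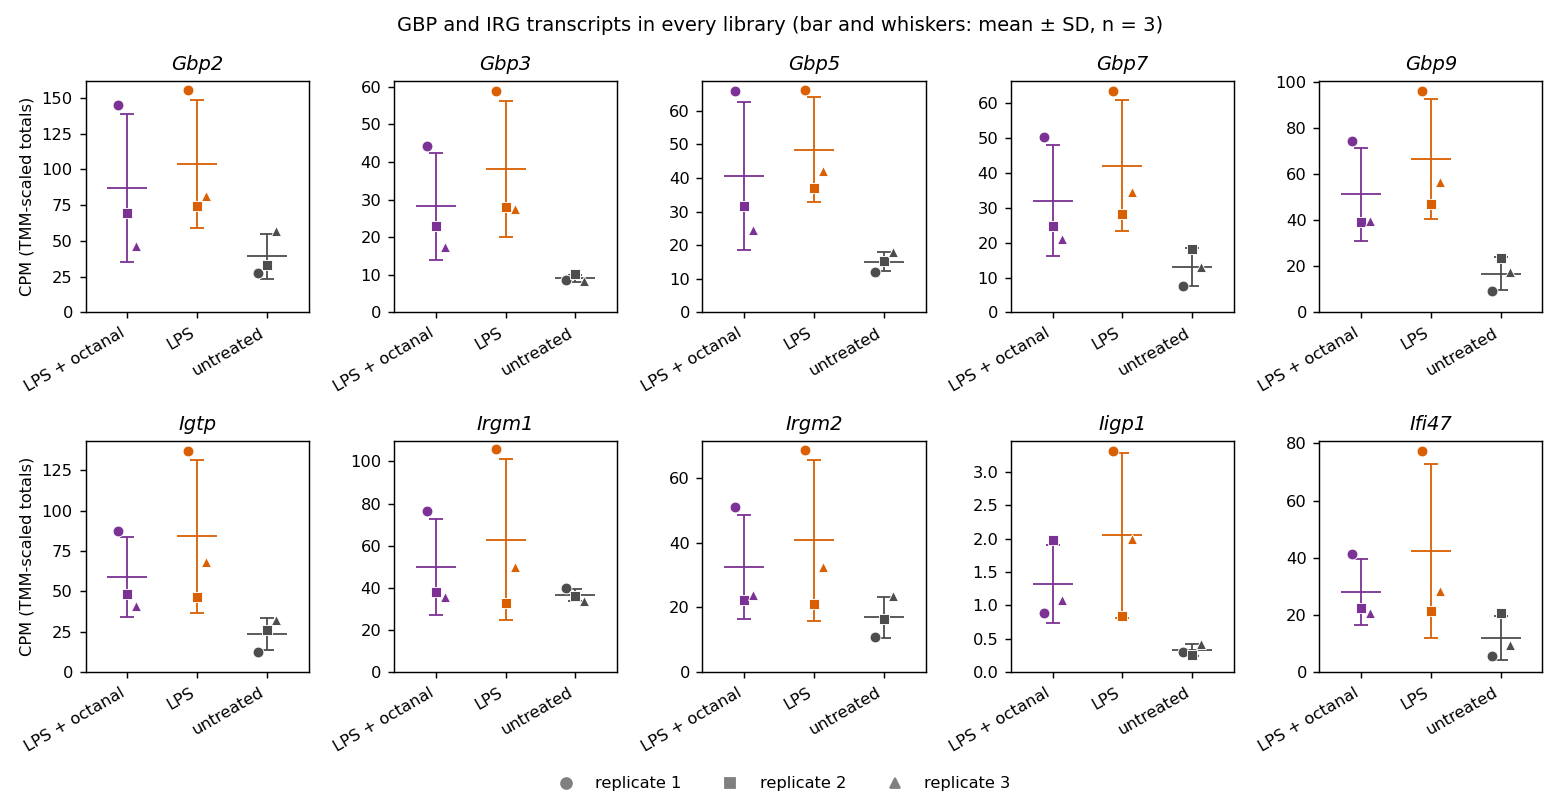
Level of each of the 10 GTPase transcripts in every library, in CPM on TMM-scaled totals, with 1 panel per gene and groups from left to right as LPS with octanal, LPS and untreated. Symbols mark the replicate, and the bar with whiskers is the mean ± SD of 3 libraries. Replicate 1 is the highest LPS library in 10 of 10 panels and the highest octanal library in 9 of 10.

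The regulatory IRGs Irgm1, Irgm2 and Igtp (also called Irgm3) sit on host membranes, where they keep the effector IRGs inactive. Igtp, found on the endoplasmic reticulum, had 87.1, 48.2 and 40.95 CPM with octanal, 137, 46.4 and 68.3 CPM with LPS, and 12.7, 25.8 and 32.1 CPM in untreated cells, with no treated library inside the untreated range. Irgm2, found on the Golgi apparatus, had 51.0, 22.4 and 23.8 CPM with octanal, 68.6, 21.01 and 32.6 CPM with LPS, and 10.8, 16.4 and 23.4 CPM in untreated cells, and both treated groups overlapped the untreated one. Irgm1, which mice need for resistance to mycobacteria, had 76.4, 38.1 and 35.7 CPM with octanal, 106, 32.9 and 49.99 CPM with LPS, and 39.8, 36.0 and 33.9 CPM in untreated cells. The untreated libraries of Irgm1 lay within a factor of 1.17, and LPS replicate 2 was below all of them.

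The effector IRGs coat the vacuole of Toxoplasma in mouse cells. Ifi47 (Irgd) had 41.3, 22.3 and 20.6 CPM with octanal, 77.3, 21.3 and 28.4 CPM with LPS, and 5.76, 20.5 and 9.42 CPM in untreated cells. Neither treated group overlapped the untreated one, but octanal replicate 3 and LPS replicate 2 stood next to untreated replicate 2. Iigp1 (Irga6, ENSMUSG00000054072) was the scarcest of the 10, with 31, 74 and 33 counts with octanal, 129, 27 and 72 counts with LPS, and 11, 8 and 12 counts in untreated cells. In CPM these were 0.892, 1.99 and 1.09 with octanal, 3.32, 0.846 and 1.99 with LPS, and 0.296, 0.262 and 0.425 in untreated cells. Iigp1 was the exception to the replicate pattern, since octanal replicate 1 was its lowest octanal library.

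Levels of different genes were compared on the deposited FPKM scale, which the authors scaled per gene length. With octanal, Gbp2 averaged 32.1 ± 19.9 FPKM, Igtp 27.3 ± 12.4, Irgm1 20.9 ± 10.4 and Ifi47 15.7 ± 6.77 (SD, n = 3), followed by Gbp5, Gbp9, Gbp3, Irgm2, Gbp7 and Iigp1. With LPS, the order began with Igtp at 41.4 ± 23.9 FPKM, Gbp2 at 40.6 ± 17.9, Irgm1 at 28.4 ± 17.5 and Ifi47 at 25.1 ± 18.2 (SD, n = 3), and went on with Gbp9, Gbp5, Gbp3, Irgm2, Gbp7 and Iigp1. In untreated cells, Irgm1 was first at 15.4 ± 1.67 FPKM, before Gbp2 at 14.1 ± 5.10, Igtp at 10.7 ± 4.37 and Ifi47 at 6.71 ± 4.68 (SD, n = 3), and then Irgm2, Gbp5, Gbp9, Gbp3, Gbp7 and Iigp1. In each group the ranges of neighbours in this order overlapped, except those of Gbp7 and Iigp1 at its end. Iigp1 averaged 0.389 FPKM with octanal, 0.677 FPKM with LPS and 0.0919 FPKM in untreated cells. Irgm1 made up 14.5%, 14.0% and 15.7% of the summed FPKM of the 10 genes in the octanal libraries, 15.1%, 11.97% and 14.3% in the LPS libraries, and 34.7%, 21.4% and 18.9% in the untreated libraries, so its share in every treated library was below every untreated one.

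LPS against untreated cells asks how LPS alone moved these genes. All 5 GBPs, Igtp, Iigp1 and Ifi47 rose with LPS, 8 of 10, while Irgm1 and Irgm2 did not pass the test (edgeR's quasi-likelihood test, Benjamini-Hochberg adjusted p under 0.05 over all genes tested). In the same comparison 15.2% of all tested genes rose and 32.8% changed in either direction. The sizes ran from 1.40 on the log2 scale for Gbp2 (SE 0.467, adjusted p = 0.046) to 2.64 for Iigp1 (SE 0.576, adjusted p = 0.011), a 6.24-fold rise of a gene with few counts. Gbp3 rose 4.20-fold, by a log2 change of 2.07 (SE 0.404, adjusted p = 0.0070), and Gbp9 rose 3.95-fold, by 1.98 (SE 0.412, adjusted p = 0.0089). Gbp5 rose by a log2 change of 1.69 (SE 0.376, adjusted p = 0.012) and Gbp7 by 1.69 (SE 0.450, adjusted p = 0.022). Igtp rose by 1.84 (SE 0.481, adjusted p = 0.021) and Ifi47 by 1.83 (SE 0.595, adjusted p = 0.043). Irgm2 had a log2 difference of 1.27 (SE 0.493, adjusted p = 0.076) and Irgm1 of 0.78 (SE 0.423, adjusted p = 0.18). The 8 genes that passed were also those whose LPS and untreated libraries did not overlap, which held for 26.7% of all tested genes in the upward direction. The median log2 change was 1.76 over the 10 genes and 0.01 over all tested genes. Over the same groups the summed T cell marker level was higher and the neutrophil level lower with LPS, as given above, and their part in these rises was not tested.

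The count of 8 rested in part on single libraries. Without LPS replicate 1, 4 of 10 rose with LPS (Gbp3, Gbp5, Gbp9 and Iigp1), and Irgm1 had a log2 difference of 0.16 (adjusted p = 0.75). Without untreated replicate 1, 4 rose as well, the same 4 genes. Over all tested genes, rises numbered 2353 in the full fit, 763 without LPS replicate 1 and 1423 without untreated replicate 1. Gbp3, Gbp5 and Gbp9 passed in each of the 18 alternative analyses that were run, with log2 changes of 1.59 to 2.24, 1.37 to 1.82 and 1.599 to 2.28.

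LPS with octanal against untreated cells asks how both agents together moved them. Gbp3, Gbp5 and Gbp9 rose, 3 of 10, where 2.63% of all tested genes rose and 8.67% changed in either direction. Gbp3 rose 3.10-fold, by a log2 change of 1.63 (SE 0.399, adjusted p = 0.039), Gbp9 rose 3.04-fold, by 1.61 (SE 0.408, adjusted p = 0.044), and Gbp5 rose 2.70-fold, by 1.43 (SE 0.373, adjusted p = 0.048). The others had positive differences that did not pass: 2.01 for Iigp1 (adjusted p = 0.062), 1.32 for Igtp (0.11), 1.30 for Gbp7 (0.10), 1.24 for Ifi47 (0.21), 1.15 for Gbp2 (0.15), 0.94 for Irgm2 (0.24) and 0.45 for Irgm1 (0.52). Octanal and untreated libraries did not overlap for 7 of 10 genes, all but Gbp2, Irgm1 and Irgm2, against 13.5% of all tested genes in the upward direction. The median log2 change was 1.31 over the 10 genes and -0.01 over all tested genes. The summed T cell marker level was higher and the neutrophil level lower with octanal than in untreated cells too, as given above, and their part in these rises was not tested. The 3 calls lay close to the threshold: 0 of 10 passed without octanal replicate 1 or 2, without LPS replicate 2 or 3 (whose libraries enter through the shared spread), or without untreated replicate 1 or 3, and 2 passed without any single one of the other 3 libraries. Over all tested genes, rises numbered 407 in the full fit and 114 to 805 with 1 library left out. The LPS and octanal comparisons share the 3 untreated libraries, so their rises are not independent of each other.

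**Figure D2:**
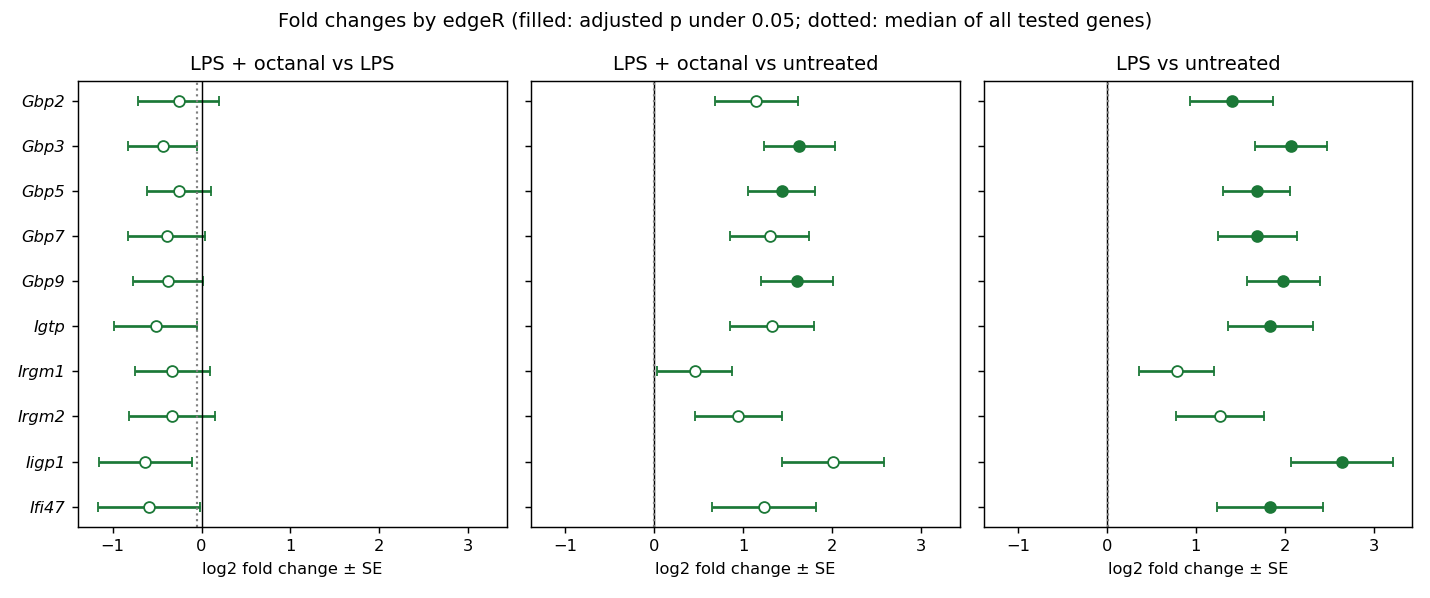
Log2 fold change ± SE of each GTPase gene from edgeR for LPS with octanal against LPS, LPS with octanal against untreated, and LPS against untreated, from left to right. Filled points have an adjusted p under 0.05 and the dotted line is the median of all tested genes, so that 0, 3 and 8 points are filled.

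LPS with octanal against LPS is the comparison that bears on octanal, together with any difference in time or solvent. None of the 10 genes passed the test. Their log2 differences were all negative, -0.25 for Gbp5 (SE 0.364), -0.26 for Gbp2 (SE 0.457), -0.33 for Irgm1 (SE 0.421), -0.33 for Irgm2 (SE 0.484), -0.38 for Gbp9 (SE 0.395), -0.39 for Gbp7 (SE 0.436), -0.44 for Gbp3 (SE 0.386), -0.52 for Igtp (SE 0.466), -0.59 for Ifi47 (SE 0.576) and -0.63 for Iigp1 (SE 0.524). The libraries of both groups overlapped for 10 of 10 genes, a count given here without the share over all tested genes. The adjusted p ran from 0.49 to 0.76 in edgeR's quasi-likelihood test. The same test called 0% of all tested genes here, with 22.3% at an unadjusted p under 0.05, and DESeq2 called 1616 genes and 0 of the 10 GTPases. The median log2 difference was -0.39 over the 10 genes and -0.05 over all tested genes, of which 45.4% had a positive value. The sign of the median changed when LPS replicate 1 alone was left out. The median was then 0.05, and 9 of 10 genes had positive differences of 0.00 (Gbp9) to 0.29 (Irgm1 and Irgm2), with Iigp1 at -0.08. Without octanal replicate 1 the median was -0.79. Without both replicates 1 it was -0.34, and 9 of 10 genes had negative differences.

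**Figure D3:**
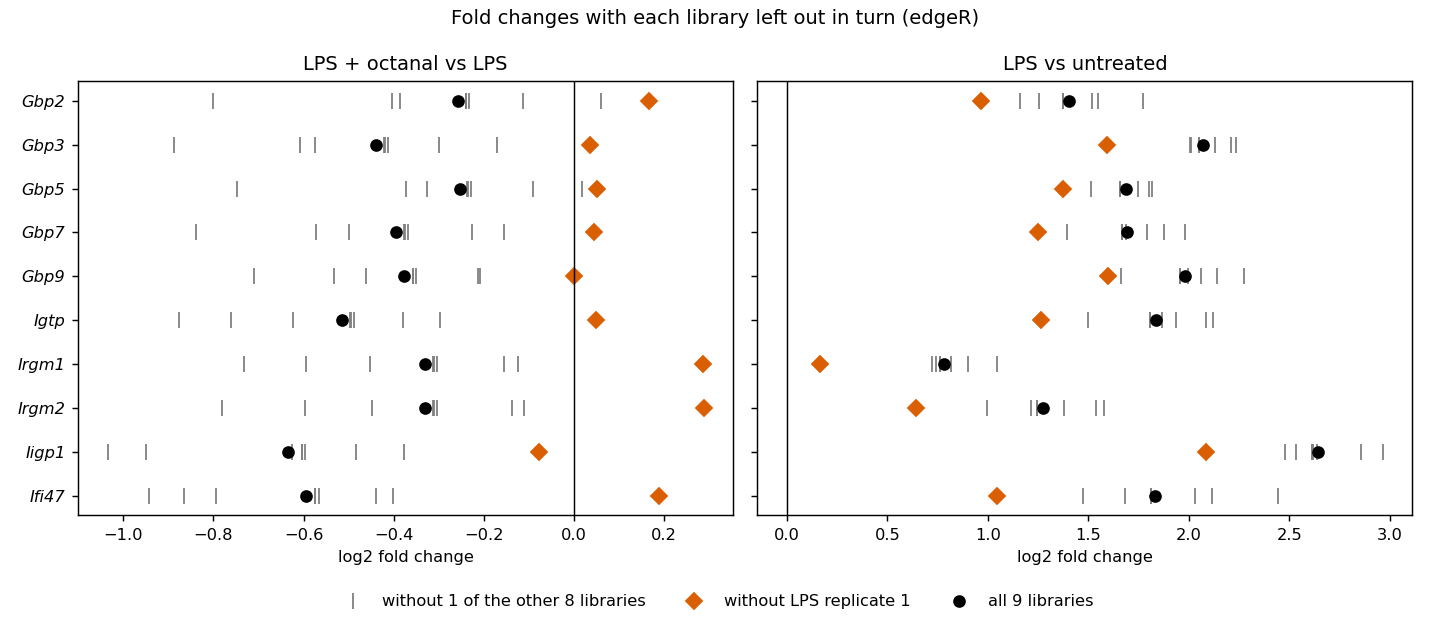
Log2 fold change of each GTPase gene from edgeR with all 9 libraries (black points), without LPS replicate 1 (orange diamonds) and without each of the other 8 libraries (grey ticks), for LPS with octanal against LPS and for LPS against untreated. Without LPS replicate 1, 9 of 10 values on the left lie at or above 0, while all values on the right stay positive.

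Replicates of a group differed in most of these genes at once. LPS replicate 1 exceeded the mean of the other LPS libraries by a factor of 1.67 (Gbp5) to 3.11 (Ifi47), with a median of 2.23 over the 10 genes. Octanal replicate 1 exceeded the mean of its fellows by a median factor of 2.13, with a range of 0.580 (Iigp1) to 2.497 (Gbp2). Untreated replicate 1 was the lowest untreated library for 7 of 10 genes and the highest for Irgm1. The summed level of the 10 genes was 636, 321 and 271 CPM with octanal, 832, 337 and 424 CPM with LPS, and 135, 200 and 213 CPM in untreated cells, so octanal replicate 1 was above LPS replicates 2 and 3. A list of 18 other type I interferon-stimulated genes was also highest in replicate 1 of both treated groups. With LPS its replicates stood in the same order as the sum of the 10 genes. With octanal the order of replicates 2 and 3 was reversed, and among untreated libraries the list was lowest in replicate 3. Its mean log2 CPM, centred per gene, was 1.29, -0.03 and 0.22 with octanal, 1.90, -0.07 and 0.41 with LPS, and -1.56, -0.49 and -1.68 in untreated cells. The T cell marker sum was highest in replicate 1 of both treated groups and lowest in untreated replicate 1, as was the sum of the 10 genes. Within the LPS group it had a smaller range, and LPS replicates 2 and 3 stood in the reverse order. It was 1048, 770 and 686 CPM with octanal, 1410, 1295 and 1147 CPM with LPS, and 133, 647 and 452 CPM in untreated cells. The sum of 10 dendritic cell markers, of which Bst2 is itself interferon-inducible, was 239, 124 and 116 CPM with octanal, 240, 215 and 176 CPM with LPS, and 149, 135 and 144 CPM in untreated cells. The part of these cell types in the spread was not tested.

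**Figure D4:**
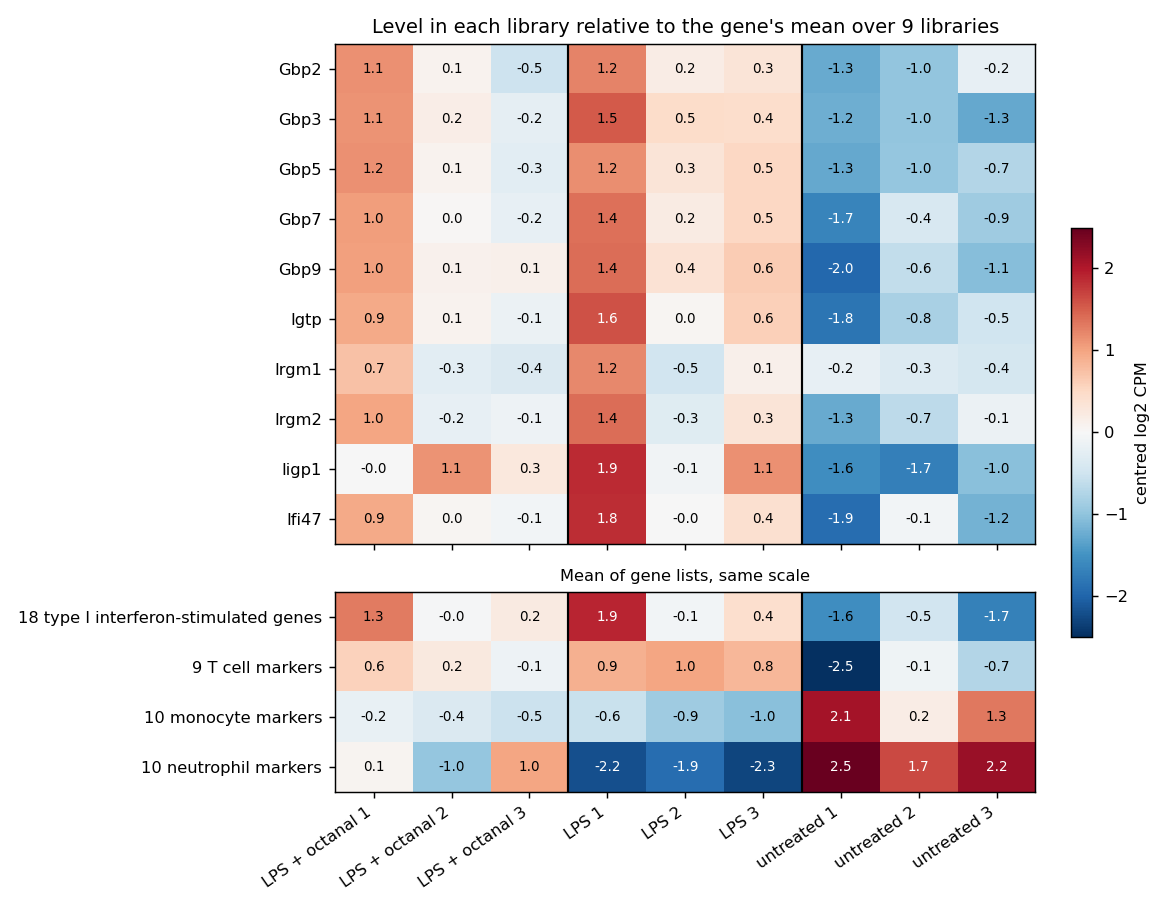
Log2 CPM of each GTPase gene in every library, centred on the gene's mean over 9 libraries, above the mean of 4 gene lists on the same scale. Octanal, LPS and untreated libraries run from left to right. The GTPase rows and the type I interferon row are highest in LPS replicate 1, and the neutrophil row is highest in untreated cells.

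As a description over 9 libraries that share 3 treatments, the 45 pairs among the 10 genes had a median Pearson r of 0.89 (range 0.57 to 0.99), and deviations from the group means had a median r of 0.80 (lowest 0.21). The pairs with Iigp1 had the lowest values within groups, 0.21 to 0.48. The non-member genes most like the family's mean over the 9 libraries were Irf9 (r = 0.99), Dtx3l (0.99), Oas1b (0.99), Mitd1 (0.99), Stat2 (0.99), Rnf31 (0.99), Parp10 (0.99) and Helz2 (0.98). They came from 8697 tested genes with a mean of at least 10 CPM. Unannotated rows and genes with Gm-number or Rik symbols, such as Gm4070 and 9930111J21Rik1, were left out of this search. Irf9, the DNA-binding subunit of the type I interferon factor, had 126, 75.2 and 70.8 CPM with octanal, 156, 69.4 and 100.9 CPM with LPS, and 38.03, 50.1 and 47.7 CPM in untreated cells. Stat2, its partner, had 180, 116 and 120 CPM with octanal, 206, 123 and 141 CPM with LPS, and 71.2, 99.0 and 95.3 CPM in untreated cells. Both showed the high replicate 1 of the LPS and octanal groups.

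Of 17 other GBP, IRG and related giant GTPase genes, 16 were in the table and 14 were tested. With LPS against untreated, 8 of these 14 rose and 0 fell, where 15.2% of all tested genes rose and 32.8% changed in either direction. Gbp6 had the largest change, with 9.13, 2.44 and 3.68 CPM with LPS and 0.592, 0.458 and 0.850 CPM in untreated cells, a log2 change of 3.00 (SE 0.602, adjusted p = 0.0078 in edgeR). Tgtp1 and Tgtp2, whose name, T cell-specific GTPase, does not tell their cell of origin here, rose by 2.45 and 2.36 on the log2 scale. They are near-identical copies whose reads may be shared. Gbp4 rose by 2.33, Gbp10 by 2.25 and Gbp8 by 1.72, and the IRG-related genes 9930111J21Rik1 and 9930111J21Rik2 rose by 1.32 and 0.92. Gm4070, Gvin1, Gbp2b, Irgq, Gbp11 and Irgc1 did not pass. With octanal against untreated, where 2.63% of all tested genes rose, Gbp6 alone of the 14 did. It had 7.71, 4.32 and 2.63 CPM with octanal and a log2 change of 2.95 (SE 0.601, adjusted p = 0.022 in edgeR). With octanal against LPS, 0 of the 14 and 0% of all tested genes passed. Of the 14, 13 had negative log2 differences, where 45.4% of all tested genes had positive ones.

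The interferon genes themselves had few counts. Ifng had 2, 0 and 0 counts with octanal, 0, 6 and 0 with LPS, and 2, 9 and 0 in untreated cells, and Ifnb1 had 0, 0 and 2 counts with octanal, 8, 0 and 0 with LPS, and 0, 0 and 5 in untreated cells. Neither gene passed the filter on low counts. Of all tested genes, 15.2% rose and 32.8% changed in either direction with LPS against untreated. Among 9 tested genes of interferon-gamma reception and signalling, 5 rose and 2 fell in that comparison. The kinases Jak1 (log2 change 0.73) and Jak2 (0.64), the factor Irf1 (0.57) and the negative regulators Socs1 (1.10) and Ptpn2 (0.51) rose, while the receptor subunit Ifngr2 (-0.73) and Irf8 (-1.57), a factor that drives monocyte development, fell. Among 9 tested genes of type I interferon signalling, 6 rose and 1 fell: Irf7 (2.03), Usp18 (1.61), Irf9 (1.27), Stat2 (0.82), Tyk2 (0.56) and Irf3 (0.40) rose, and the receptor subunit Ifnar2 (-0.76) fell. With octanal against untreated, 3 of the 9 interferon-gamma pathway genes rose and 1 fell, and 1 of the 9 type I pathway genes rose, Tyk2, by 0.81. There, 2.63% of all tested genes rose and 8.67% changed in either direction.

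Of 18 type I interferon-stimulated genes, 9 rose with LPS against untreated, Oasl1 by 3.68, Isg15 by 2.57, Ifit2 by 2.25 and Rtp4 by 3.24 on the log2 scale among them, where 15.2% of all tested genes rose, and 2 rose with octanal against untreated, where 2.63% did, Oasl1 by 2.71 and Isg15 by 2.13. Of 12 genes typical of the interferon-gamma response, 5 rose with LPS (Cxcl10 by 2.55, Socs1 by 1.10, Tap1 by 1.02 and Psmb8 by 0.82 among them), and 2 rose with octanal (Cd274 by 0.77 and Socs1 by 1.12). Neither list had a gene that fell in these comparisons, or a gene that passed between octanal and LPS.

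Of 17 genes whose proteins work with GBPs and IRGs, 4 rose and 5 fell with LPS against untreated, where 15.2% of all tested genes rose and 32.8% changed in either direction. Nlrp3, the sensor that Gbp5 acts on, rose by 1.47 on the log2 scale, Trim21 by 1.02, Fntb, a subunit of the enzyme that farnesylates some GBPs, by 0.97 and Sqstm1, an autophagy receptor, by 0.77. The autophagy genes Atg7, Atg5, Atg3 and Gabarap, whose products take part in targeting IRGs and GBPs to vacuoles, fell by 1.41, 0.97, 0.83 and 0.75, and Gsdmd, which encodes the pore protein of pyroptosis, fell by 0.64. The autophagy genes Atg12, Atg16l1 and Gabarapl2 had log2 differences of -0.30, 0.17 and -0.09 that did not pass. With octanal against untreated, 3 rose and 0 fell, where 2.63% of all tested genes rose and 8.67% changed in either direction. The genes that rose were Nlrp3 by 2.06, Sqstm1 by 1.19 and Casp4, which encodes mouse caspase-11, the intracellular LPS sensor, by 0.99. Between octanal and LPS, Gsdmd had a log2 difference of 0.66 and Atg7 of 0.92, with adjusted p of 0.0565 and 0.0746 in edgeR. There, 0 of 17 genes and 0% of all tested genes passed.

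The genes lie in clusters (GRCm38). On chromosome 3, plus strand, stand Gbp5 (ENSMUSG00000105504, 142493978 to 142522344), Gbp7 (ENSMUSG00000040253, 142530342 to 142550149), Gbp3 (ENSMUSG00000028268, 142560026 to 142573209) and Gbp2 (ENSMUSG00000028270, 142620602 to 142638008). Gbp9 (ENSMUSG00000029298) lies on chromosome 5 at 105077630 to 105139539 on the minus strand. Chromosome 11 holds Irgm1 (ENSMUSG00000046879, 48861968 to 48871683, minus strand), Ifi47 (ENSMUSG00000078920, 49076587 to 49096974, plus strand like the next genes), Igtp (ENSMUSG00000078853, 58199556 to 58207591) and Irgm2 (ENSMUSG00000069874, 58199618 to 58222782). In the GENCODE annotation the Irgm2 locus spans most of Igtp on the same strand, and 162 exon bases are common to both, 8.01% of those of Igtp and 4.39% of those of Irgm2. Exons of Gbp9 share 60 bases with Gbp8 and 60 with Gbp4, those of Ifi47 share 111 with Olfr56, and 637 bases of Gbp7 exons coincide with the pseudogene Gm43802. Of all 50-base words in their transcripts, 12.7% in Gbp7, 11.8% in Igtp, 8.05% in Gbp9 and 7.77% in Irgm2 also occur in other genes, and 3.75% or less in each of the other 6. How such reads were counted is not given in the sources used here, so the counts of these 4 genes are the less certain ones.

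Because most of these genes rose together with LPS, the promoters of 8 of them were read from RefSeq sequence (GRCm38.p6). The 9 windows ran from 250 bases before to 50 bases after each start site. For Gbp9 no entry matched, and Iigp1 was left out by choice, so the counts below cover neither of these genes. The letters GAAANNGAAA, the core of an ISRE, occurred on either strand in 7 of 8 genes, all but Ifi47, against 3.99% of all 27025 genes with a window. Gbp3 had 2 windows, of which the second held no match. The letters TTCNNNGAA, the core of a GAS, occurred in 4 of 8 genes (Gbp5, Gbp7, Igtp and Irgm2), against 9.55% of all genes. Both occurred in these 4 genes and in 0.54% of all genes. The stretches that hold them are shown 5′ to 3′ on the strand of the gene, with the matched letters in capitals and without the first GAS match of Gbp5, at -245, so that their order and spacing can be compared.
Gbp5, chr3:142496754-142496903: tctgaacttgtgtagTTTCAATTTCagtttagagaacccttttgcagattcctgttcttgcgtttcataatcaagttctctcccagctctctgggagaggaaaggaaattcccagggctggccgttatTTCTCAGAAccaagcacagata
Gbp7, chr3:142530216-142530335: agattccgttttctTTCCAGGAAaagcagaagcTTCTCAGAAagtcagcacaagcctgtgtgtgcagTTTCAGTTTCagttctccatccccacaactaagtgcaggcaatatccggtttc
Gbp3, chr3:142559944-142560043: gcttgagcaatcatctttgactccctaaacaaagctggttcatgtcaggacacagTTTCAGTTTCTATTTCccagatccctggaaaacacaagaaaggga
Gbp2, chr3:142620533-142620622: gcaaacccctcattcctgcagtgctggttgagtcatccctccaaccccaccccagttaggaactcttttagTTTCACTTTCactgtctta
Irgm1, chr11:48871428-48871457: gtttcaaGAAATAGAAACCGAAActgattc
Igtp, chr11:58199456-58199555: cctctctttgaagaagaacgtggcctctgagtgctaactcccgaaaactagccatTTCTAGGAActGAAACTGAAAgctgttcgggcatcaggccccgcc
Irgm2, chr11:58214877-58214976: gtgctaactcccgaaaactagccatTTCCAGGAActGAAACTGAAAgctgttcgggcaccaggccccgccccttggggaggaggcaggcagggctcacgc

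In Gbp5, Gbp7, Gbp3 and Gbp2 the ISRE letters stand on the strand opposite to the gene, at -165, -53, -45 and -59 bases from the start site, that of Gbp2 inside an exon of the GENCODE annotation, and Gbp3 holds a second, overlapping match at -39. In Igtp and Irgm2 a GAS match is followed closely by an ISRE match, at -45 and -34 in Igtp and at -75 and -64 in Irgm2. These promoters are copies of each other, with 130 bases that differ at 2 positions (98.5% identical), so their matches are not independent. Irgm1, the gene with the smallest difference between LPS and untreated cells, holds overlapping ISRE matches at -30 and -24, also inside a GENCODE exon, and no GAS match. Ifi47, which holds neither in this window, rose with LPS, while Irgm1 and Irgm2, which hold ISRE letters, did not pass the test. The matches are a description of letters, and no binding was measured.

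**Figure D5:**
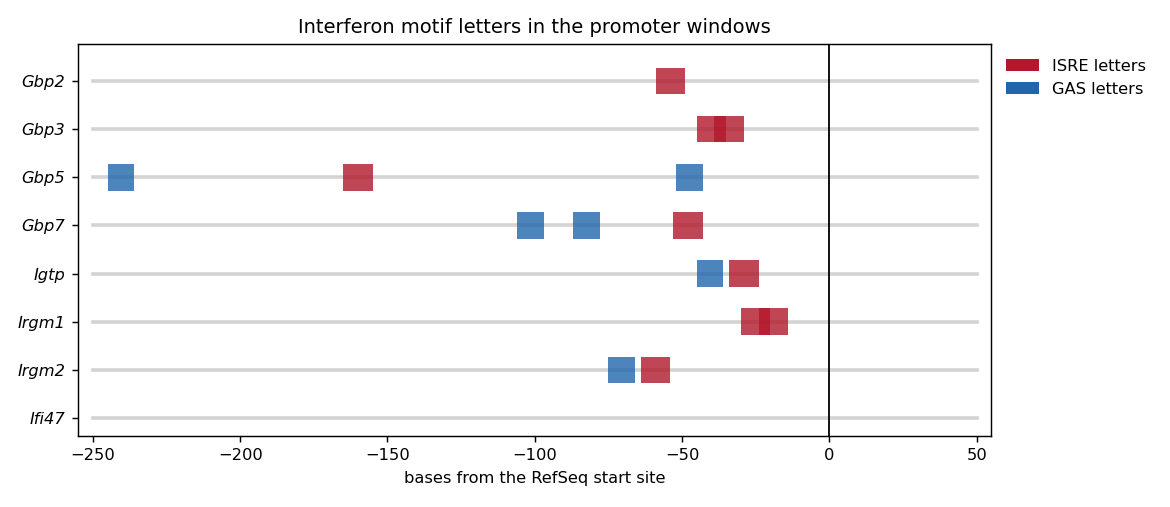
Places of the ISRE letters (red) and GAS letters (blue) in the promoter windows of 8 GTPase genes, in bases from the RefSeq start site. ISRE letters appear in 7 of 8 genes, in all of these but Gbp5 at -64 or closer to the start, and GAS letters in 4 of 8.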

How the data were processed

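The labels' protocols name TRIzol extraction and an mRNA library kit, and the submitters' processing notes name the GRCm38 build. The table deposited by the authors holds whole-number counts per gene and library, not normalized according to its values and headers. Per the file headers, the FPKM values beside them were scaled by the authors for length and depth. For the aligner, the counter and the use of strand the answer is: not given in the sources used here. Of the gene rows, 22035 had Ensembl identifiers and 4735 were unannotated, and 10 lines without values were dropped.

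The counts went into edgeR 4.0.16 under R 4.3.3 with TMM factors of 0.923 to 1.07 and filterByExpr by group. All 9 libraries were fitted together, with 6 residual degrees of freedom, and compared by the quasi-likelihood test. The 15447 genes tested covered 99.9% or more of every library. A gene was called at a Benjamini-Hochberg adjusted p under 0.05 over all of them. CPM are on TMM-scaled totals, and SE are those of the log2 fold change. The fit was also run on simulated counts, in which genes vary independently, without the shared high replicate 1 described above. No result here rests on that run. Positions came from GENCODE M21 and promoters from RefSeq. DESeq2 1.42.0, limma 3.58.1 on log2(FPKM + 0.1), other filters and left-out libraries served as alternatives. At totals of 29594291 counts or more, counting error is small except for Iigp1.

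The members, gene lists, tests and alternatives were chosen with earlier results of these data known. All 10 members and the tested genes of the other GBP and IRG list are named, and of each further list up to 4 tested genes of lowest p in a comparison. The called genes of the signalling and partner lists beyond these, and the autophagy genes that did not pass, were named after their values were seen. No label names a batch or tells whether replicates are separate animals or cultures, and the p-values therefore describe the spread among these libraries alone. Replicates differed by a chi-square per degree of freedom of 42.9 to 142, so none was a repeat of another within counting error.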

Additional observations from a re-analysis of the deposited data

How the results depend on the processing

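Among the values of single genes under all alternatives, 151 kept their direction and side of the threshold in LPS against untreated, 26 no longer passed and 1 newly passed. In LPS with octanal against untreated these numbers were 146, 29 and 3. In LPS with octanal against LPS, 166 kept them and 12 changed sign. The genes called for LPS against untreated, 8 of 10, became 9 with DESeq2, 5 with the replicate block, 4 without both LPS replicate 1 and octanal replicate 1, and 4 to 8 with 1 library left out. For octanal against untreated, 3 of 10 became 6 with DESeq2, 0 in a fit of those groups alone, 1 with the replicate block, 1 without both replicates 1, and 0 to 2 with 1 library left out. The count stayed at 0 of 10 for octanal against LPS in all 18 alternatives. Over all genes, that comparison gave 0 calls in the fit as reported, 1616 with DESeq2, 279 without a filter, 346 at a mean of 10 CPM, 1380 in a fit of both groups alone, 155 with limma on FPKM, 118 without unannotated rows, and 0 to 584 with 1 library left out. Octanal against untreated gave 1339 calls, against 2626 with DESeq2, 404 in the fit of those groups alone, 435 without both replicates 1, and 298 to 2137 with 1 library left out. LPS against untreated gave 5072, against 2321 without both replicates 1 and 2387 to 5658 with 1 library left out, and 46.4% of its calls were rises, against 60.5% with limma on FPKM, which moved the median of all genes by 0.11 on the log2 scale. In octanal against LPS, the median of the 10 genes was -0.79 to 0.0499 with 1 library left out, and the sign of 9 genes turned positive without LPS replicate 1. Their ranges over left-out libraries were -0.80 to 0.17 for Gbp2, -0.89 to 0.0348 for Gbp3, -0.75 to 0.0511 for Gbp5, -0.84 to 0.0444 for Gbp7, -0.71 to 0.00088 for Gbp9, -0.88 to 0.0488 for Igtp, -0.73 to 0.29 for Irgm1, -0.78 to 0.29 for Irgm2 and -0.94 to 0.19 for Ifi47. Gbp2 (0.06) and Gbp5 (0.02) also turned positive without octanal replicate 3. Iigp1, at -1.03 to -0.08 with 1 library left out, was at 0.15 without both replicates 1. Beyond fewer samples or genes in a fit, the cause of these moves was not tested. Replicate numbers were not taken as pairing the samples. Correlations of deviations were -0.08 to 0.12 for same-numbered libraries and -0.11 to 0.17 for differently numbered ones. The highest for octanal against LPS was that of both replicates 1, at 0.12. With 3 replicates per group, these values cannot exclude pairing. Iigp1 had too few counts for the stricter filter and the FPKM fit.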
